A study of Mus musculus with 18 samples.

Results

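The nuclear genes for the subunits of mitochondrial complex I were examined in the prostates of mice with mutations in Elac2. Members were chosen by symbol: every protein-coding gene named Ndufa, Ndufb, Ndufc, Ndufs or Ndufv followed by a digit, and Ndufab1, with the assembly factors named Ndufaf left out. This gave 38 of the 55469 genes of the deposited tables. Of these, 36 encode subunits of complex I, and the remaining 2, Ndufa4 and Ndufa4l2, carry the family name, although the Ndufa4 protein is now assigned to complex IV. A further 5 matching symbols that are annotated as pseudogenes or a non-coding RNA were left out (Ndufa11b, Ndufab1-ps, Ndufb1-ps, Ndufb4c and Ndufs6b). The gene Ndufb1 is therefore not among the members.

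Complex I takes electrons from NADH, passes them through a flavin and a chain of iron-sulfur clusters to ubiquinone, and pumps protons across the mitochondrial inner membrane. The nuclear core subunits form its peripheral arm in the matrix, the mitochondrial genome encodes the core of the membrane arm, and the accessory subunits surround both and are needed for assembly and stability. The secretory epithelium of the prostate is known for exporting citrate, an intermediate of the cycle that supplies complex I with NADH, and skeletal muscle is known for its high content of mitochondria.

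ELAC2 is the endonuclease that cleaves the 3′ ends of nuclear and mitochondrial tRNA precursors. Total RNA from the ventral and lateral lobes of male mice (strain labelled C56NL/6N) was sequenced at 10 and 30 weeks of age, with 3 mice in each of 6 groups and no further treatment. WT mice carried intact Elac2 (ELAC2+/+). KO mice (ELAC2-/-) were homozygous for excision of exon 8 by Cre recombinase under the probasin promoter, which is active in prostate epithelium, so that the other cells of the lobes kept the gene. A537T mice were homozygous in the whole body for the alanine to threonine change of that name, made with CRISPR-Cas9. Both mutant lines were set against the same 3 WT libraries at each age. The TRAMP lines were not analysed here.

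Values are normalised read counts, that is, gene counts divided by a size factor for each library. The whole counts behind them summed to 6569642 to 11225281 per library. Of the 38 members, 37 reached the mean of 10 normalised counts needed for testing in each table, and Ndufa4l2 did not. Elac2 itself was 144 ± 21.1 in WT and 115 ± 4.09 in KO at 10 weeks, and 166 ± 24.7 in WT and 124 ± 26.5 in KO at 30 weeks (mean ± SD, n = 3). A count over the whole gene includes the exons that remain after excision of exon 8, so it does not check the deletion. The libraries differed in content: the 32 skeletal muscle markers, led by Acta1 and Ckm, took 4.08, 6.78 and 13.2% of the counts in the WT libraries at 10 weeks, labelled 10AF, 11AF and 12AF, and at most 0.0752% in any library at 30 weeks. Library 12AF stood apart from the other WT libraries at 10 weeks in the members too. The medians and most named differences at 10 weeks are therefore also given without it. The prostate epithelium markers took 3.68 to 13.3% of counts in WT and 0.459 to 3.84% in KO at 10 weeks.

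The upstream regions of 4 members are shown because these genes had the 2 largest differences in KO at 10 weeks (Ndufc1 and Ndufb6), the smallest there (Ndufab1), and the largest higher mean at 30 weeks (Ndufb4). Each is the 250 bases before the transcription start in RefSeq, read 5′ to 3′ on the gene's strand, in the GRCm38.p6 build. Ndufc1 lies at chromosome 3, 51404677 to 51408988, minus strand, Ndufb6 at chromosome 4, 40270591 to 40279421, minus strand, Ndufab1 at chromosome 7, 122085403 to 122101886, minus strand and Ndufb4 at chromosome 16, 37647170 to 37654453, minus strand. Capitals mark matches to 6 short motifs searched on both strands, none of which overlaps another in these 4 regions: TGCGCA (the core of the NRF1 motif), CCGGAAG (ETS), AAGATGG (YY1), AAGGTCA (the half-site of oestrogen-related receptors), GGGCGG (SP/KLF) and CCAAT (NF-Y).
Ndufc1: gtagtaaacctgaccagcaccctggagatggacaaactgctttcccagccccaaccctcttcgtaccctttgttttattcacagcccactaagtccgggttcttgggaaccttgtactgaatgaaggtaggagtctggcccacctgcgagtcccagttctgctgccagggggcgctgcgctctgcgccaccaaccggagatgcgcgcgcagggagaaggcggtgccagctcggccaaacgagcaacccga
Ndufb6: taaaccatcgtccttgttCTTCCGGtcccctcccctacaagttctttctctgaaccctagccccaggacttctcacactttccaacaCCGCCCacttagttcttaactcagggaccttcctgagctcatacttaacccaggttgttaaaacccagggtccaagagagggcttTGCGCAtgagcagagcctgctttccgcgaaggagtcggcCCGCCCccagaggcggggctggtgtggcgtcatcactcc
Ndufab1: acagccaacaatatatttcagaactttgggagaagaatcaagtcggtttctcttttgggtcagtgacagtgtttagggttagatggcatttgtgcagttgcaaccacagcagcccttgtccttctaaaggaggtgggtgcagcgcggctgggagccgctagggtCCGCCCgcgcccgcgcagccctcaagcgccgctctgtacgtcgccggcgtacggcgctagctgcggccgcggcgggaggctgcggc
Ndufb4: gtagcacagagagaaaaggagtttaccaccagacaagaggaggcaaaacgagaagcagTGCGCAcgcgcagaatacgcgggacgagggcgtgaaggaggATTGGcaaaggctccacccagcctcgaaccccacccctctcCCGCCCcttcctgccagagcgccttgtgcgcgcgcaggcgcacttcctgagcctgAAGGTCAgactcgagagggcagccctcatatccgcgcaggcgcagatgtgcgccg
The windows are chr3:51408956-51409205, minus strand, chr4:40279422-40279671, minus strand, chr7:122101849-122102098, minus strand and chr16:37654369-37654618, minus strand. The gene annotation of the files places the starts of Ndufc1, Ndufab1 and Ndufb4 within these windows, upstream of the RefSeq start. The Ndufc1 window holds none of these letters, the Ndufab1 window holds GGGCGG alone, and both the Ndufb6 and the Ndufb4 window hold TGCGCA.

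Of the 38 members, 33 had an upstream region in the RefSeq table. TGCGCA was present in 7 of them (21.2%), against 6.43% of all 32851 upstream regions of the table and 12.8% of the 10760 tested genes with a region. The shares of members and tested genes count a gene with a match in any of its regions. The share of all counts each region by itself, so the units differ. The 7 genes are Ndufa5, Ndufa6, Ndufa9, Ndufb4, Ndufb6, Ndufs5 and Ndufs6, 4 of the peripheral arm and 3 of the membrane arm, none of them a core subunit. GGGCGG was in 14 (42.4%, against 32.7% of all and 63.1% of tested genes), CCAAT in 10 (30.3%, against 33.8% of all and 40.1% of tested genes), CCGGAAG in 3 (9.09%, against 6.91% of all and 14.8% of tested genes) and AAGGTCA in 3 (9.09%, against 4.08% of all and 3.56% of tested genes). GGGCGG and CCGGAAG were thus above the share of all upstream regions, counted by region, and below that of tested genes, counted by gene. AAGATGG was in 0 of the 33, against 4.49% of all and 5% of tested genes, and 9 members held none of the 6 motifs. These are matches to letters in a fixed window and not evidence of binding.

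In KO prostates at 10 weeks all 37 tested members had a lower mean than in WT, as did 50.6% of all genes. Their median log2 fold change, KO minus WT, was -0.89, and that of all 15089 genes tested was -0.01. For 30 of the 37 every KO library was below every WT library, which held for 14.3% of all genes tested. None passed an adjusted p of 0.05 by limma, as for 0% of all genes, while 32 had an unadjusted p under 0.05 in the lower direction (11.5% of all genes). On recovered counts edgeR called 0 members (0% of genes) and DESeq2 called 19 of the 37 (4.74% of genes), all lower. In bulk tissue, fewer cells of a type and less RNA per cell cannot be told apart.

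The members moved together from library to library. Against the WT mean, the median member stood at -0.48 in 10AF, -0.07 in 11AF and 0.56 in 12AF, and at -0.91, -0.67 and -1.04 in the KO libraries 13AF, 14AF and 15AF (log2). Library 12AF was the highest of the 6 for all 37 members, and 10AF the lowest WT library for all 37. The ratio of 12AF to 10AF had a median of 2.08 and ran from 1.64 for Ndufa2 to 2.93 for Ndufc1. Among KO, 14AF was the highest library for 30 of the 37. The spread within WT was thus of the same order as the difference between the groups.

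**Figure D1:**
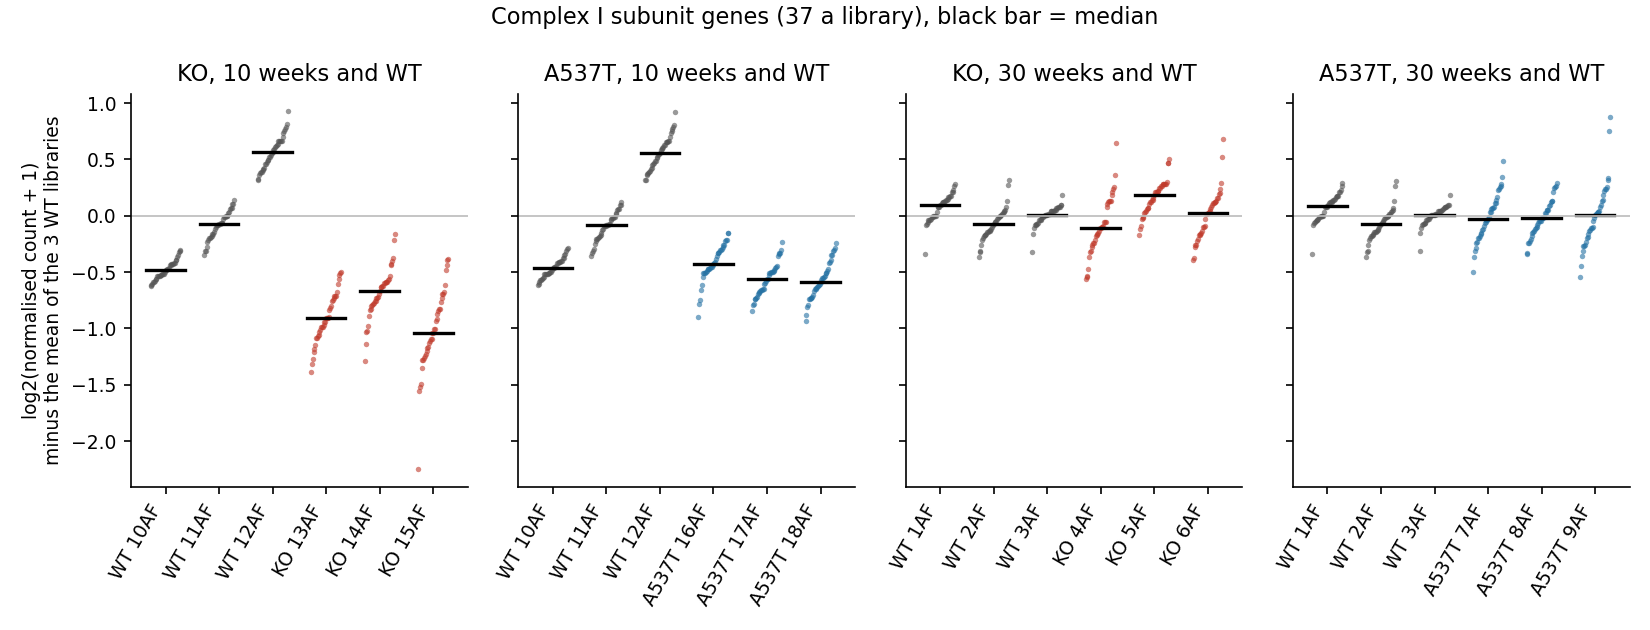
Each dot is 1 of the 37 tested subunit genes in 1 library, as log2(normalised count + 1) minus the mean of the 3 WT libraries of the same table, sorted within the library; black bars are medians. At 10 weeks the WT medians run from -0.48 to 0.56 and the KO medians from -1.04 to -0.67, while at 30 weeks the medians of the 6 libraries of the KO table lie between -0.11 and 0.19.

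All 7 core subunits were lower in KO at 10 weeks with no overlap, as were 14.3% of all genes. The core median log2 fold change was -0.89, with adjusted p by limma of 0.183 to 0.229. Values are given in the order 10AF, 11AF and 12AF for WT and 13AF, 14AF and 15AF for KO. Ndufv1, which binds NADH and the flavin where electrons enter, was 396, 629.6 and 807 in WT and 353, 389 and 362 in KO. Ndufv2, an iron-sulfur subunit beside it, was 414, 521 and 924 in WT and 253, 376 and 254 in KO. Ndufs1, the largest subunit, which carries several of the iron-sulfur clusters, was 509, 725 and 1049 in WT and 389, 432 and 362 in KO. In these 3 genes of the NADH-oxidising end every KO library lay below 10AF, the lowest WT library, and 14AF was the highest KO library; their log2 fold changes were -0.67 ± 0.25, -1.01 ± 0.32 and -0.89 ± 0.26 (± SE, n = 3 per group).

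The core subunits of the ubiquinone-reducing part were lower by similar amounts. Ndufs3, which joins this part to the cluster chain, was 315, 342 and 548 in WT and 207, 253 and 216 in KO. Here 10AF lay above every KO library and 12AF stood well above the rest. Ndufs7, which holds the last cluster before ubiquinone, was 202, 277 and 353 in WT and 136, 173 and 126 in KO. Ndufs8, which holds the 2 clusters before it, was 229, 275 and 376 in WT and 149, 189.7 and 161 in KO. The log2 fold changes were -0.79 ± 0.23 for Ndufs3, -0.91 ± 0.24 for Ndufs7 and -0.79 ± 0.21 for Ndufs8.

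The 10 accessory subunits of the peripheral arm had a median log2 fold change of -0.82, and 5 of them were lower without overlap (14.3% of all genes). They ran from Ndufa12 (-1.20) to Ndufab1 (-0.42). This group held 5 of the 7 members whose groups overlapped: Ndufa2, Ndufa6, Ndufa7, Ndufab1 and Ndufs4. Ndufab1, the mitochondrial acyl carrier protein, which also serves fatty acid synthesis and iron-sulfur cluster assembly, was 221, 241 and 507 in WT and 211, 231 and 229.8 in KO, the smallest difference of any member (-0.42 ± 0.31, adjusted p = 0.459 by limma). In this gene 10AF lay within the KO range, 11AF just above it and 12AF far above it, and without 12AF the log2 fold change was -0.04. Ndufa2, a small subunit with a thioredoxin-like fold, was 199, 274 and 325 in WT and 159, 233 and 192 in KO. At the other end Ndufa12, which sits at the ubiquinone-reducing part, was 412, 456 and 901 in WT and 260.3, 272 and 195 in KO, with every KO library below every WT library (-1.20 ± 0.31).

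The accessory subunits of the membrane arm held the members with the largest differences, Ndufc1 and Ndufb6. By group, the medians of this arm lay on either side of the core median of -0.89. The 9 accessory subunits nearer the peripheral arm had a median of -0.86, with 8 lower without overlap. The 10 at the far end had a median of -0.93, with 9 lower without overlap. Of all genes, 14.3% were lower without overlap. Ndufc1 was 133, 165 and 389.7 in WT and 84.2, 103 and 42.3 in KO, the largest difference of any member (-1.50 ± 0.48), and also the one with the largest standard error. Ndufb6 was 117, 177 and 275 in WT and 71.3, 72.6 and 69.7 in KO, with 3 nearly equal KO libraries (-1.32 ± 0.30, adjusted p = 0.183 by limma). The SD of Ndufc1 was 139.9 in WT and 31.1 in KO, and that of Ndufb6 was 79.8 in WT and 1.44 in KO. With the muscle score as a covariate the log2 fold changes were -0.41 for Ndufc1 and -1.03 for Ndufb6, and -0.40 for the median member. Ndufb2 was 155, 192 and 370.3 in WT and 154, 191 and 137 in KO and overlapped (-0.48 ± 0.33), with -0.11 without 12AF and 0.14 with the muscle score as a covariate. Ndufc2, the partner of Ndufc1 in the membrane arm, was the other overlapping gene of the membrane arm, at 124, 176 and 285 in WT and 112, 111 and 139 in KO (-0.61 ± 0.30).

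The 2 genes with the family name alone differed from each other in level. Ndufa4, a subunit of cytochrome c oxidase, was 506, 722 and 1201 in WT and 289.6, 409 and 264 in KO, the third largest difference (-1.27 ± 0.33, adjusted p = 0.183 by limma). Ndufa4l2, its hypoxia-inducible paralogue, was at 4.89, 5.83 and 19.4 in WT and 4.3, 7.03 and 10.3 in KO and was too low to test. The KO libraries were all below WT for Ndufa4, and the groups overlapped for Ndufa4l2.

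Skeletal muscle markers moved with this difference. All 32 had a lower mean in KO, 31 with no overlap (14.3% of all genes) and a median log2 fold change of -7.00. The share of these markers was 0.0682, 2.13 and 0.0629% in the KO libraries. The defining markers Acta1, Ckm, Mylpf, Tnnt3 and Atp2a1 were above 0 in every library of this table but 15AF, where 1 was at 0. The members took 0.14, 0.177 and 0.227% of the counts in WT, in the same order as the muscle share, and 0.113, 0.12 and 0.104% in KO, where 14AF was again the highest in both. Seminal vesicle markers were the reverse, at 4.64, 1.77 and 0.000808% in WT and 6.56 to 10.3% in KO. With a skeletal muscle score as a covariate the median of the members was -0.40, with 34 of 37 still lower. Ndufa4 was then at -0.50, and the core subunits named ran from -0.49 for Ndufs1 to -0.27 for Ndufv2. Of the other markers, all 6 of smooth muscle and all 3 of leukocytes tested had a higher mean in KO (medians 1.01 and 0.05), 5 of 6 of adipocytes a lower one (-0.94) and 6 of 9 of prostate epithelium a lower one (-0.16), and their part in the result was not tested. Muscle content, seminal vesicle content and genotype largely coincide in these 6 libraries and cannot be told apart. A seminal vesicle score was not fitted at 10 weeks.

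Scaled to the same total, the median of all genes was 0.20 and that of the members -0.68, which is -0.88 relative to all genes. Without 12AF the median was -0.63 and 30 of the 37 were lower without overlap, as were 16.1% of all genes. Without 10AF, the WT library nearest to KO, it was -1.13, and limma called 29 of the 37, all lower, where it called 19.2% of all genes. The log2 fold changes without 12AF were -1.04 for Ndufc1, -1.01 for Ndufb6, -0.94 for Ndufa4 and -0.28 for Ndufa2. Those of the core subunits named then ran from -0.71 for Ndufs7 to -0.44 for Ndufv1.

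**Figure D2:**
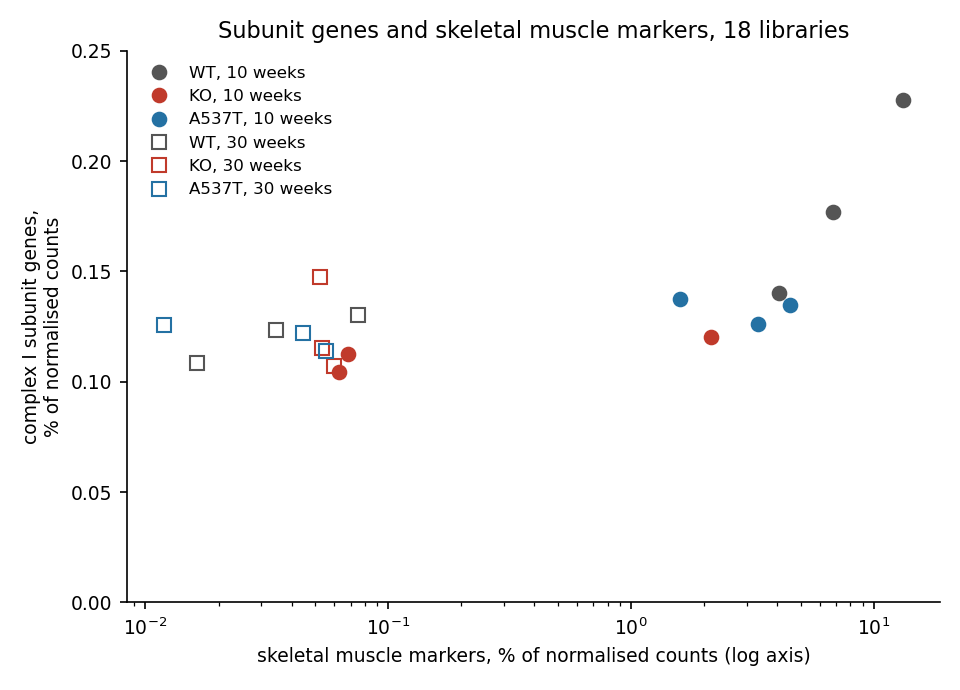
Each point is 1 of the 18 libraries, with the share of the 32 skeletal muscle markers on the x axis (log scale) and the summed normalised counts of the 38 members as a percentage of the library on the y axis; WT is taken from the KO tables. Library 12AF of WT at 10 weeks lies highest on both axes, the KO libraries at 10 weeks lie at 0.104 to 0.12%, and the 9 libraries at 30 weeks spread over 0.107 to 0.148% at muscle shares under 0.1%.

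In A537T prostates at 10 weeks, against the same WT libraries, all 37 tested members again had a lower mean (48.5% of all genes). The median log2 fold change was -0.54 (0.01 over all 15131 genes tested). Every A537T library was below every WT library for 14 members, against 6.34% of all genes, and 8 members had an unadjusted p under 0.05 in the lower direction, against 3.67% of all genes. None passed an adjusted p of 0.05 by limma (0% of genes), edgeR (0%) or DESeq2 (0.595%). The lowest adjusted p of a member by limma was 0.746.

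The core subunits had a median of -0.45, and 3 of the 7 were lower without overlap (Ndufv2, Ndufs3 and Ndufs8), as were 6.34% of all genes. A537T values follow in the order of libraries 16AF, 17AF and 18AF. Ndufv1 was 411, 643 and 827 in WT and 453, 384 and 488 in A537T. Ndufv2 was 421, 518 and 925 in WT and 413, 418 and 352 in A537T. Ndufs1 was 515, 721 and 1047 in WT and 627, 454 and 499 in A537T. The A537T libraries of Ndufv1 and Ndufs1 lay between 10AF and 11AF or below 10AF, whereas those of Ndufv2 were all below 10AF. Their log2 fold changes were -0.45 ± 0.26, -0.58 ± 0.28 and -0.48 ± 0.27.

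Ndufs3 was 326, 348 and 559 in WT and 283, 315 and 301 in A537T. Ndufs7 was 210.3, 283 and 362 in WT and 229.8, 204 and 179.6 in A537T. In Ndufs7 the lowest WT library fell inside the A537T range, and in Ndufs3 it did not. Ndufs8 was 235, 277 and 381 in WT and 212, 206 and 235 in A537T, with 18AF just below 10AF. The log2 fold changes were -0.41 ± 0.22 for Ndufs3, -0.45 ± 0.22 for Ndufs7 and -0.42 ± 0.20 for Ndufs8.

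The largest differences in A537T at 10 weeks were in Ndufa5, Ndufa4 and Ndufb8. Ndufa5, an accessory subunit of the peripheral arm, was 202, 239.5 and 439 in WT and 189, 154 and 144 in A537T (-0.77 ± 0.30, adjusted p = 0.746 by limma). Ndufa4 was 533, 748 and 1248 in WT and 425, 495 and 508 in A537T (-0.74 ± 0.29). Ndufb8, from the far end of the membrane arm, was 414, 562 and 1091 in WT and 400.0, 379.6 and 378 in A537T (-0.71 ± 0.33). In all 3 genes the A537T libraries were below every WT library, and 12AF stood far above the other WT libraries. The smallest were in Ndufab1, Ndufa7 and Ndufa6, all of the peripheral arm. Ndufab1 was 242, 258 and 545 in WT and 292, 275 and 254 in A537T (-0.25 ± 0.31). Ndufa7 was 324, 494 and 621 in WT and 396, 369 and 392 in A537T (-0.26 ± 0.24). Ndufa6 was 322, 406 and 617 in WT and 344, 343 and 355 in A537T (-0.31 ± 0.23). In these 3 genes every A537T library lay above 10AF and below 12AF, and without 12AF their log2 fold changes were 0.13, -0.05 and -0.06, the first with the direction turned. The differences of Ndufa5, Ndufa4 and Ndufb8 were then -0.44, -0.41 and -0.32, and those of the core subunits named ran from -0.26 for Ndufs7 to -0.17 for Ndufs3. Ndufa4l2, at 5.18, 5.19 and 19.2 in WT and 7.45, 7.61 and 7.06 in A537T, was not tested.

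By position, the medians were -0.50 for the peripheral accessory subunits (3 of 10 without overlap), -0.54 for the nearer (2 of 9) and -0.58 for the far membrane arm (5 of 10). Of all genes, 6.34% were lower without overlap. The skeletal muscle share was 4.51, 3.33 and 1.59% in the A537T libraries, where all 32 markers had a lower mean than in WT and 8 did not overlap (median -1.68), and seminal vesicle markers took 0.0374 to 0.191%. With the muscle score as a covariate the median of the members was -0.07 and 22 of 37 were lower, without 12AF it was -0.25 and without 10AF -0.78. Without 10AF 33 members were lower without overlap, as were 19.9% of all genes. Of the other markers, 6 of 6 of smooth muscle (median 1.01), 5 of 6 of adipocytes (0.46, 3 without overlap), 2 of 3 of leukocytes (0.15) and 5 of 9 of prostate epithelium (0.06) had a higher mean in A537T. Over all 15131 genes tested, 844 were higher without overlap. The part of these markers in the result was not tested.

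KO and A537T at 10 weeks share their WT libraries, so their values are given side by side and not as independent results. The member medians were -0.89 and -0.54. Ndufab1 was -0.42 in KO and -0.25 in A537T, and Ndufa4 -1.27 and -0.74. Ndufc1 was -1.50 in KO and -0.63 in A537T, Ndufb6 -1.32 and -0.59, and Ndufa1, which lies in the membrane arm and is encoded on the X chromosome, -0.53 and -0.59. The difference between the lines was not tested.

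**Figure D3:**
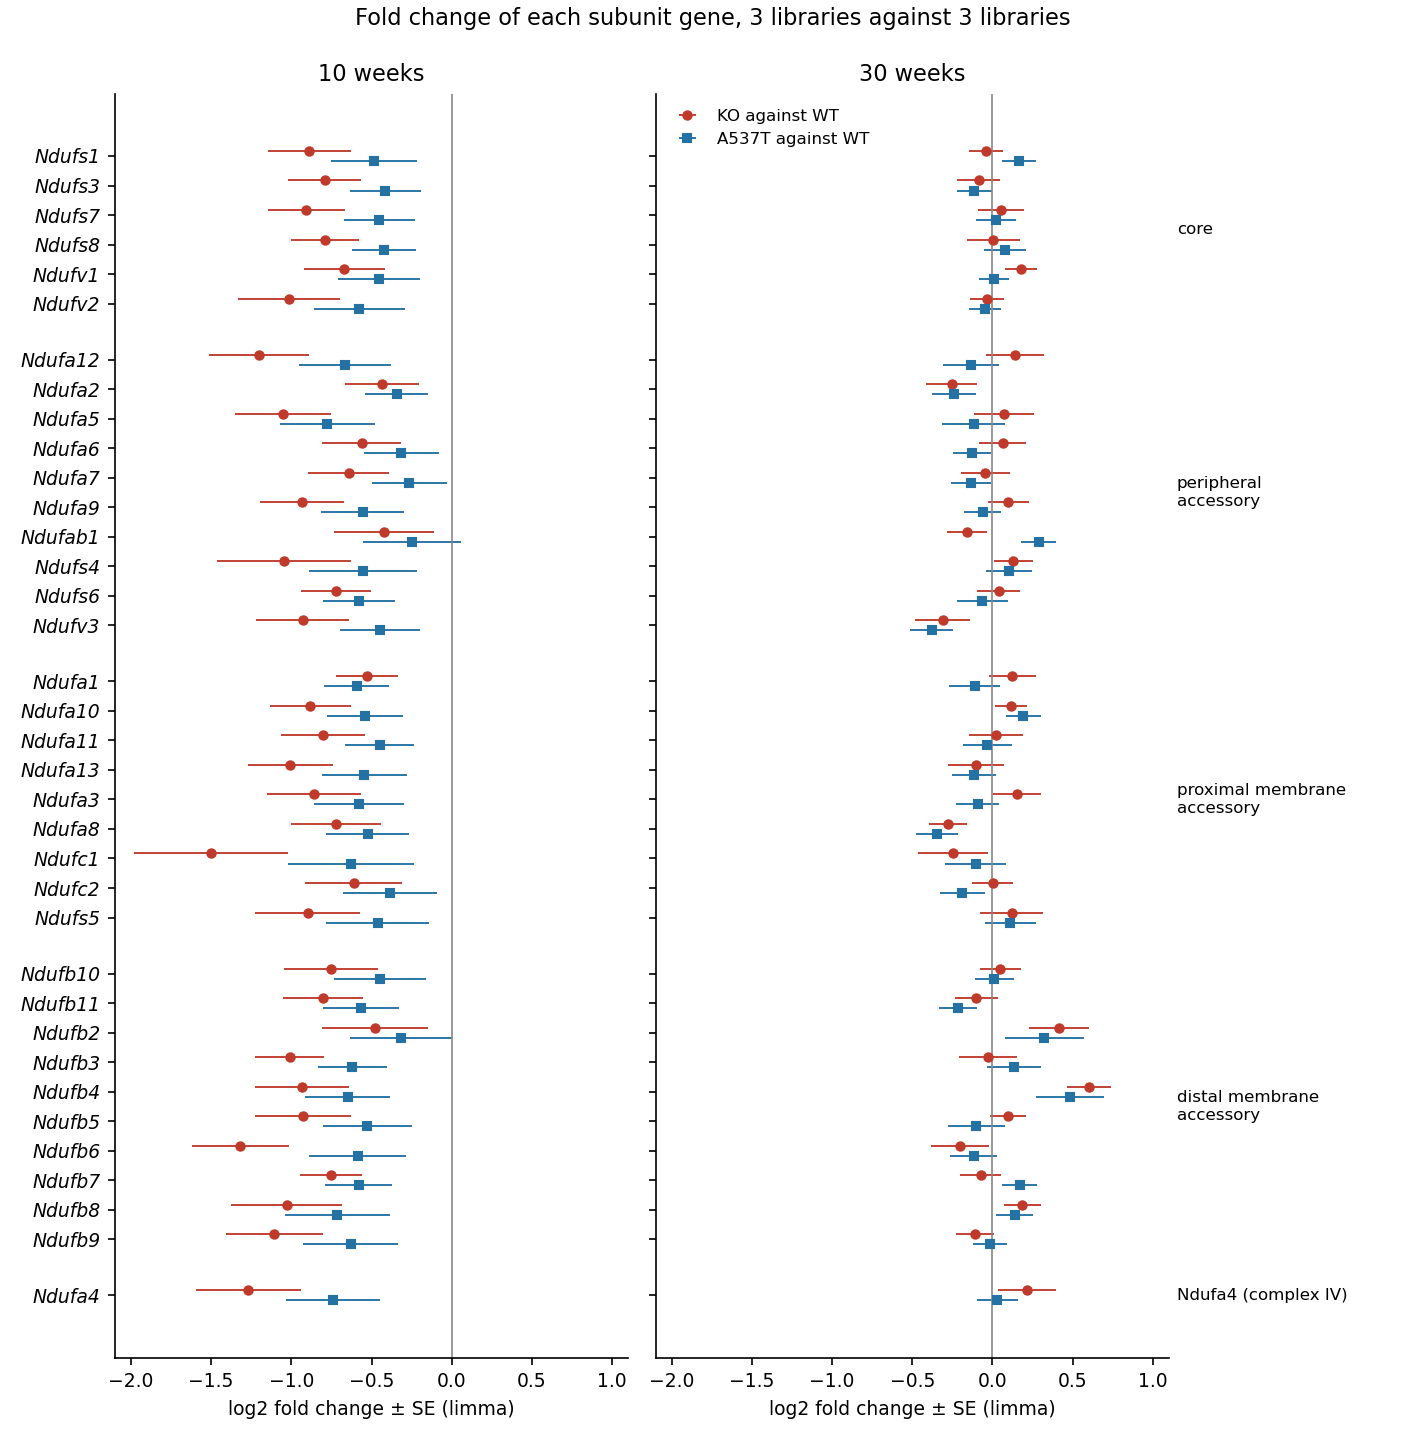
Log2 fold change of 36 of the 37 tested members against WT with its SE from limma (n = 3 libraries per group), grouped by place in the complex, for KO (circles) and A537T (squares) at 10 weeks (left) and 30 weeks (right). All points lie below 0 at 10 weeks, from -1.50 for Ndufc1 in KO to -0.25 for Ndufab1 in A537T, and at 30 weeks they lie on both sides of 0, from -0.38 for Ndufv3 in A537T to 0.60 for Ndufb4 in KO.

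At 30 weeks the members had no common direction in KO. Of the 37 tested, 15 had a lower (50.9% of all genes) and 22 a higher mean, with a median log2 fold change of 0.04 (-0.01 over all 14729 genes tested). The groups did not overlap for 3 members in the higher direction, among them Ndufb4 and Ndufv1, against 7.92% of all genes, and for 1 in the lower, Ndufa8, against 8.41%. None passed an adjusted p of 0.05 by limma (0% of genes), edgeR (0%) or DESeq2 (1.93%), and 1 member had an unadjusted p under 0.05 (11% of genes).

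That member was Ndufb4, of the far membrane arm, and it had the largest difference. Ndufb4 was 154, 128 and 129.7 in WT and 215, 189 and 219.8 in KO, in the order 1AF, 2AF and 3AF for WT and 4AF, 5AF and 6AF for KO, with every KO library above every WT library (0.60 ± 0.14, adjusted p = 0.375 by limma). The pseudogene Ndufb4c, a near copy, was listed at 41.5 to 59.5 in WT and 43 to 58 in KO, and the split of reads between the copies is uncertain. Ndufb2, also of the far membrane arm, was 163, 204 and 131 in WT and 193, 227 and 235 in KO, where the lowest KO library lay below the highest WT library (0.41 ± 0.19). Ndufv3, an accessory subunit of the NADH-oxidising end, was 586, 464 and 524 in WT and 354, 530.2 and 397 in KO, where 5AF was above 2 of the 3 WT libraries (-0.31 ± 0.17). Ndufa8, which has twin cysteine motifs and lies on the intermembrane side, was 321, 278 and 316 in WT and 251, 269 and 234 in KO, with all KO libraries below WT (-0.28 ± 0.12, adjusted p = 0.456 by limma).

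The core subunits were near their WT level in KO at 30 weeks, with a median of 0.01. Ndufv1 was 352, 355 and 354 in WT and 386, 431 and 384 in KO (0.18 ± 0.10). Ndufs1 was 365, 384 and 390.1 in WT and 357, 350.3 and 401 in KO (-0.04 ± 0.10). WT libraries agreed closely in Ndufv1, and all KO libraries lay above them, which was not so in Ndufs1. Ndufv2 was 358, 357 and 359 in WT and 316, 372 and 363 in KO. Ndufs3 was 264, 256 and 274 in WT and 235, 292 and 226 in KO. Ndufs7 was 163, 156 and 142 in WT and 139, 169 and 171 in KO. These 3 overlapped, with log2 fold changes of -0.03, -0.08 and 0.05. Ndufs8 was 170.5, 173 and 180.2 in WT and 139, 203 and 191 in KO and was one of the 3 smallest differences (0.01 ± 0.17). The others were Ndufc2, at 165, 162 and 171 in WT and 159.9, 186 and 155 in KO, and Ndufa11, a membrane-arm subunit, at 201, 166 and 185 in WT and 155, 223 and 187 in KO. In each of these 3 genes 5AF was the highest of the 6 libraries and 4AF or 6AF the lowest. Ndufa4 was 564, 429 and 477 in WT and 455, 690.2 and 576 in KO (0.22 ± 0.18), and Ndufa4l2 was 4.02, 2.3 and 1.98 in WT and 2.46, 2.94 and 4.65 in KO.

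The KO libraries at 30 weeks differed among themselves. The median member stood at -0.11 in 4AF, 0.19 in 5AF and 0.02 in 6AF against the WT mean, and 5AF was the highest of the 6 libraries for 18 members. Seminal vesicle markers took 8.53% of the counts in 4AF and 6.32% in 6AF, and in 5AF and the WT libraries each of the defining markers Svs2, Svs4 and Svs5 was at most 8.91 normalised counts. With a seminal vesicle score as a covariate the median was 0.15 and 7 members were lower, and without 5AF the median was -0.05. Prostate epithelium markers had a lower mean in KO for 9 of 9 (median -0.46), and smooth muscle markers a higher one for 6 of 6 (0.34), as did adipocyte markers for 5 of 5 (2.04) and leukocyte markers for 2 of 3 (0.11). Their part in these values was not tested.

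In A537T at 30 weeks 21 members had a lower (50.7% of all genes) and 16 a higher mean, with a median of -0.05 (-0.01 over all 14789 genes tested). The groups did not overlap for 4 members in the higher direction, among them Ndufab1, Ndufb7 and Ndufs1 (9.18% of all genes), and for 2 in the lower, Ndufa8 and Ndufv3 (9.4%). Unadjusted p was under 0.05 for 3 members (13.6% of genes), and none passed an adjusted p of 0.05 by limma (0%), edgeR (0%) or DESeq2 (3.22%).

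Ndufv3 was 579.9, 459.9 and 521 in WT and 402, 442 and 355 in A537T, with A537T in the order 7AF, 8AF and 9AF, and every A537T library below every WT library (-0.38 ± 0.13, adjusted p = 0.315 by limma). Ndufa8 was 318, 274 and 314 in WT and 213, 266 and 235 in A537T, likewise without overlap (-0.34 ± 0.13, adjusted p = 0.336 by limma). Ndufb4 was 161, 133 and 136 in WT and 199.9, 152 and 263 in A537T (0.48 ± 0.21), where 8AF lay below the highest WT library and 9AF stood far above all WT libraries. These were the 3 largest differences. Ndufab1 was 198, 213 and 199 in WT and 243, 245 and 257 in A537T, with the A537T libraries close together and above WT (0.29 ± 0.11, adjusted p = 0.33 by limma). The counts of the same WT libraries for Ndufab1 differed between the 2 tables that hold them, summing to 708 in the KO table and 634 in the A537T table, a ratio of 0.895. This was the widest gap of any tested member at 30 weeks, where 34 of the 37 agreed within 5%.

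The core subunits were near their WT level in A537T at 30 weeks, with a median of 0.02. Ndufs1 was 345, 361 and 369 in WT and 437, 392 and 379 in A537T (0.17 ± 0.11). All A537T libraries were above WT in this gene, by margins that are small beside those at 10 weeks. The counts of the same WT libraries for Ndufs1 summed to 1181 in the KO table and 1118 in the A537T table, a ratio of 0.947. Ndufv1 was 376, 378 and 379 in WT and 388, 366 and 388 in A537T, among the smallest differences of all members (0.01 ± 0.09). Ndufv2 was 359, 357 and 361 in WT and 344, 372 and 329 in A537T. Ndufs3 was 258, 250.02 and 269 in WT and 238, 255 and 226 in A537T. The groups overlapped in these 3 genes. Ndufs7 was 161, 154 and 141 in WT and 164, 147 and 152 in A537T. Ndufs8 was 171, 173 and 180.1 in WT and 196, 161 and 198 in A537T. Both overlapped too, and the log2 fold changes of the last 4 were -0.05, -0.11, 0.02 and 0.08.

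The remaining members with the smallest differences were Ndufb10 and Ndufb9 of the far membrane arm. Ndufb10 was 341, 294 and 295 in WT and 307, 288 and 341 in A537T. Ndufb9 was 537.4, 467 and 525 in WT and 537.4, 501 and 474 in A537T. The groups overlapped in both. Ndufa4 was 563, 428 and 477 in WT and 507, 465 and 518 in A537T (0.03 ± 0.13), and Ndufa4l2 was 4.01, 2.29 and 1.98 in WT and 2.01, 3.86 and 2.19 in A537T. By position the medians were -0.12 for the peripheral accessory subunits, of which 8 of 10 were lower, -0.11 for the nearer membrane arm and 0.07 for the far membrane arm. Seminal vesicle markers took 7.24% of counts in 7AF and 9.17% in 9AF and were at or near 0 in 8AF, where the median member stood at -0.02, between -0.03 in 7AF and 0.01 in 9AF. Prostate epithelium markers had a lower mean in A537T for 8 of 9 (median -0.51). Smooth muscle (6 of 6, 0.22), adipocyte (6 of 6, 1.33) and leukocyte markers (3 of 3) had a higher one. Of the leukocyte markers 2 were higher without overlap, as were 9.18% of all genes. The part of these markers was not tested. KO and A537T at 30 weeks share WT libraries too.

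**Figure D4:**
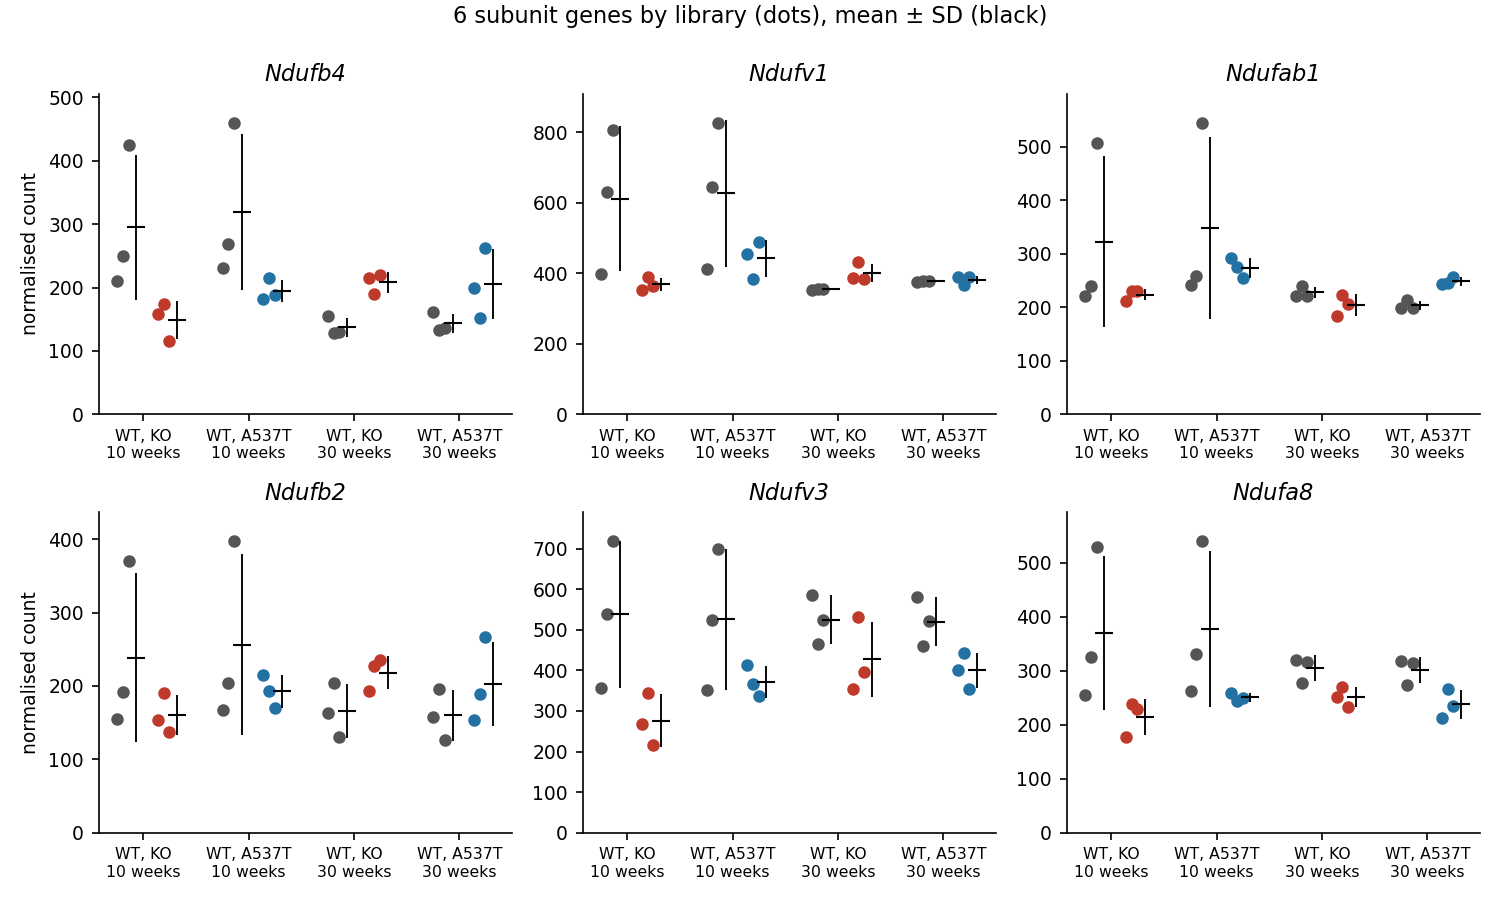
Normalised counts of 6 members in each library (dots; WT grey, KO red, A537T blue) with the mean ± SD (black, n = 3) for the 4 comparisons. Ndufb4 lies below WT at 10 weeks and above it in KO at 30 weeks, at 215, 189 and 219.8 against 154, 128 and 129.7, and Ndufab1 in A537T at 30 weeks lies at 243, 245 and 257 against 198, 213 and 199.

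Other genes of the pathway were read from lists written by hand. Of the complex I assembly factors, 16 were tested at 10 weeks, and 13 had a lower mean in KO, with a median of -0.30 and 4 without overlap, where 50.6% of all genes were lower and 14.3% lower without overlap. Ecsit, which acts in assembly of the membrane arm, was 115, 182 and 243 in WT and 82.5, 93.7 and 91.5 in KO (-0.94 ± 0.28, adjusted p = 0.183 by limma). Ndufaf1, its partner, was 80.2, 85.8 and 144 in WT and 49, 62.1 and 54.9 in KO (-0.85 ± 0.27). Both had every KO library below every WT library, by less than the largest subunits and more than the median factor. In A537T at 10 weeks 14 of 16 factors were lower (median -0.18, 0 without overlap; all genes 48.5% and 6.34%), and at 30 weeks 7 of 15 were lower in KO and 8 of 15 in A537T, with medians of 0.04 and -0.05. No factor passed an adjusted p of 0.05 in any comparison by limma.

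The mitochondrially encoded core subunits, held in 6 entries because mt-Nd4l and mt-Nd4 share 1, did not follow the nuclear genes as a group. In KO at 10 weeks 3 entries had a lower mean without overlap and 3 a higher mean with overlap, against the 14.3% of all genes that were lower without overlap. mt-Nd3 was 3919, 6224 and 12096 in WT and 2749, 3697 and 2180.0 in KO (-1.24 ± 0.41). mt-Nd1 was 14044, 16383 and 21138 in WT and 10469, 12786 and 8929 in KO (-0.67 ± 0.23). mt-Nd5 was 12022, 9651 and 7637 in WT and 10723, 11965 and 9478 in KO (0.15 ± 0.22). In WT at 10 weeks mt-Nd1 and mt-Nd3 were highest in 12AF, as the nuclear members were, while mt-Nd5 was lowest there. In A537T at 10 weeks mt-Nd1, mt-Nd3 and mt-Nd6 were lower without overlap, at -0.53, -1.01 and -0.53, against 6.34% of all genes. At 30 weeks 5 of the 6 entries were lower in mean in KO (median -0.06), all with overlap, and 4 of 6 in A537T (median -0.16), 2 without overlap, as were 9.4% of all genes. The entry higher in KO, mt-Nd3, was 2689.8, 1903 and 1983 in WT and 3318, 3130.2 and 3347 in KO (0.59 ± 0.15, adjusted p = 0.386 by limma), higher without overlap in KO. In A537T mt-Nd5 was 8009.9, 10046 and 8876 in WT and 6878, 6486 and 6351 in A537T, lower without overlap (-0.44 ± 0.12, adjusted p = 0.272 by limma), as was the shared entry of mt-Nd4l and mt-Nd4 (-0.35 ± 0.12, adjusted p = 0.315 by limma; named mt-Nd4l_4 in the files).

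The list of other enzymes that reduce ubiquinone also held Etfa and Etfb, whose protein carries electrons to such an enzyme. All 7 genes listed had lower means in KO at 10 weeks, with a median of -0.61 and 4 without overlap (50.6% and 14.3% of all genes). Sdha, the flavoprotein of complex II, was 1334, 1768 and 2585 in WT and 1232, 1141 and 1025 in KO (-0.69 ± 0.24, adjusted p = 0.206 by limma). Etfa, which carries electrons from fatty acid oxidation, was 302, 277 and 412 in WT and 203, 237 and 181 in KO (-0.66 ± 0.19). In A537T at 10 weeks 6 of the 7 were lower (median -0.34; 48.5% of all genes), and at 30 weeks 5 of 7 in each line (medians -0.08 in KO and -0.11 in A537T). None of these genes passed an adjusted p of 0.05 by limma.

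Levels were compared between members per kb of transcript, using the exonic length of the annotated transcript with the longest coding sequence. In WT at 30 weeks Ndufa1 was highest, at 1290.1 ± 236 normalised counts per kb (mean ± SD, n = 3), and did not overlap the next. Ndufa3 (837 ± 114), Ndufa7 (837 ± 95.6) and Ndufa4 (803 ± 113) followed and overlapped one another. The median member was at 253, and the lowest were Ndufc1 (97.2 ± 18), Ndufab1 (65.5 ± 2.95), Ndufb2 (38 ± 8.39) and Ndufa4l2 (2.96 ± 1.17). The transcripts used for Ndufab1 and Ndufb2 are the longest of the 38, at 3479 and 4371 bases for 468 and 315 coding bases, so their low level per kb depends on that choice.

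Of the 37 neighbouring pairs in this order, 29 overlapped in WT at 30 weeks and 36 in WT at 10 weeks, where the spread between libraries was wider. In WT at 10 weeks the order began with Ndufa4 (1327 ± 583), Ndufa3 (1215 ± 512) and Ndufb9 (1205 ± 534), and in KO at 10 weeks with Ndufa1 (690.3 ± 27.4), Ndufa3 (635 ± 85.1) and Ndufa7 (561 ± 79.3), as at 30 weeks in WT. In A537T Ndufa3 led at 10 weeks (813 ± 41.1) and Ndufa1 at 30 weeks (1191 ± 135), and in KO at 30 weeks Ndufa1 led (1391 ± 80.5). The tables of the 2 ages were normalised separately, so levels were not tested between ages.

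**Figure D5:**
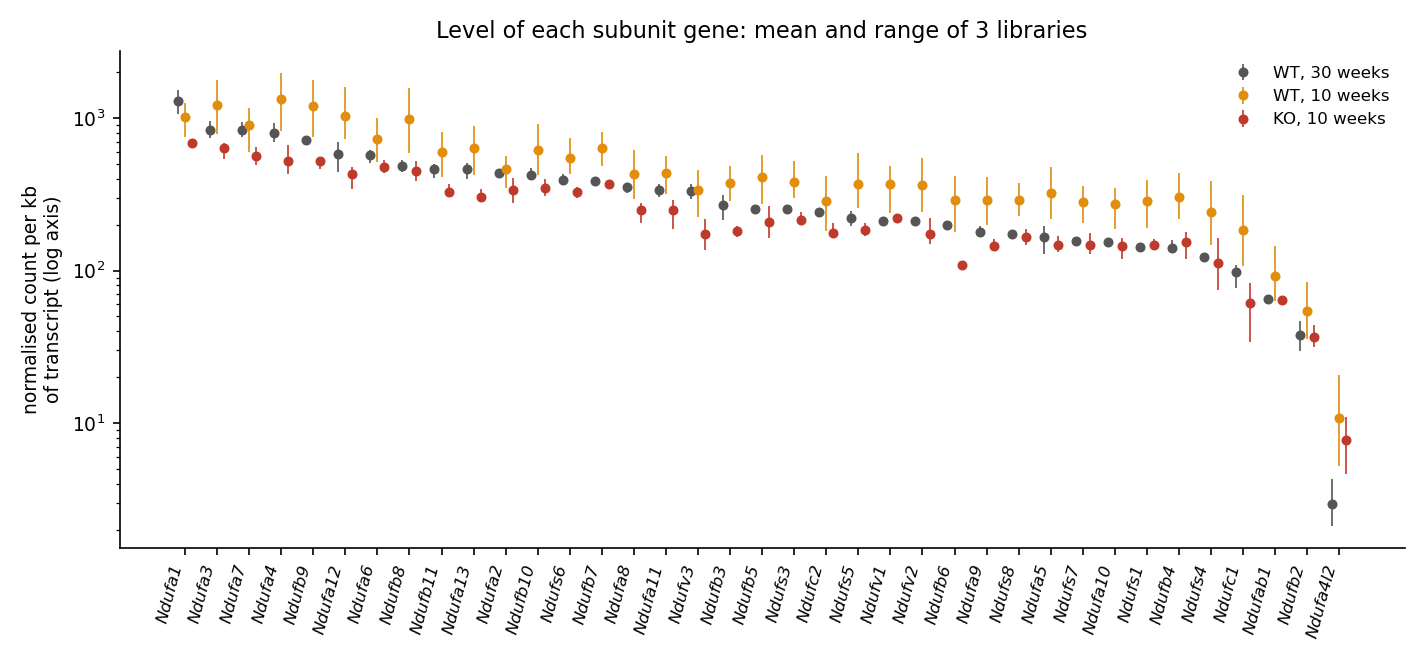
Normalised counts per kb of transcript (log axis) for 37 of the 38 members in the order of WT at 30 weeks, as the mean (dot) and range (line) of 3 libraries in WT at 30 weeks, WT at 10 weeks and KO at 10 weeks. The levels run from 1290.1 for Ndufa1 to 2.96 for Ndufa4l2 in WT at 30 weeks, and the ranges of WT at 10 weeks are the widest of the 3 groups for most members.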

How the data were processed

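Total RNA of 18 prostate libraries was analysed. Per the labels and methods, reads were trimmed with Trim Galore 0.4.1 and cutadapt 1.18, aligned with STAR 2.7.3a to GRCm38.p6 whose nuclear copies of mitochondrial DNA had been masked, quantified with Salmon, and imported with tximport 1.14. The authors deposited 4 tables in which the signal is the gene count divided by a DESeq2 1.26 size factor, each with the 3 libraries of 1 mutant group and 3 WT libraries of the same age. Their tables of fold changes and p-values were not used. Column names are library labels (10AF and the like) that give no group or replicate. A library in both tables of an age was taken as WT and one in a single table as that table's mutant line, and GEO's labels give 3 mice in each of these groups.

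Dividing by the smallest step of a column gave back whole counts for at least 99.987% of values within 0.05 of a whole number. The counts of the same WT library differ between its 2 tables for 35 of 37 members at 10 weeks and 33 at 30 weeks, so they are estimates made within a table; how they were scaled is not given in the sources used here. Each comparison was fitted within its table with limma 3.58.1 (trend, two-sided) on log2(normalised count + 1) over genes with a mean of at least 10, with Benjamini-Hochberg adjustment over all genes tested and a threshold of 0.05. Fold changes on this scale understate those of low genes. Alternatives were other pseudocounts, filters and scalings, a muscle or seminal vesicle score as covariate, each library left out, and edgeR 4.0.16 and DESeq2 1.42.0 on recovered counts. Fits were tested on simulated data.

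The members and lists were chosen with earlier results of these data known. 1 member counts in the totals and is not reported here by name. Values per library are given for the core subunits otherwise, the 3 largest and 3 smallest differences of each comparison, Ndufa4 and Ndufa4l2. The other genes given with values were chosen after their values were seen, among them Ndufa12, Ndufc2, the assembly factors named, Sdha and Etfa. Lengths come from a close release of the gene annotation, and upstream regions from RefSeq (GRCm38.p6).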

Additional observations from a re-analysis of the deposited data

Results flagged for a closer look

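On the scale of log2(normalised count + 1), some members stood below the WT mean in all 3 mutant libraries at 10 weeks and above it in all 3 at 30 weeks. For Ndufa12 in KO this held on the log scale alone, since 6AF at 30 weeks lay just below the WT mean of the normalised counts. The tables of the 2 ages were normalised separately and this difference was not tested. In KO this held for 7 of the members reported by name. The log2 fold change at 30 weeks minus that at 10 weeks was 1.53 for Ndufb4, 1.34 for Ndufa12, 1.22 for Ndufb8, 1.00 for Ndufa10, 0.89 for Ndufb2, 0.85 for Ndufv1 and 0.65 for Ndufa1. In A537T it held for 7, at 1.13 for Ndufb4, 0.85 for Ndufb8, 0.75 for Ndufb3, 0.75 for Ndufb7, 0.73 for Ndufa10, 0.65 for Ndufs1 and 0.53 for Ndufab1. The lower value of Ndufab1 in A537T at 10 weeks turned to 0.13 without 12AF. Ndufb2 in KO (-0.11 without 12AF) and Ndufs1 in A537T (-0.22) then no longer had all 3 mutant libraries below the WT mean. Ndufb2 was 191 in 14AF, against 155 in 10AF and 192 in 11AF. Ndufs1 was 627 in 16AF, against 515 in 10AF and 721 in 11AF. For the other members listed for each line, every mutant library at 10 weeks stayed below the mean of 10AF and 11AF. The lines share their WT libraries at each age. At 30 weeks the ratio of WT counts, A537T table to KO table, was 0.947 for Ndufs1, 0.895 for Ndufab1 and 1.07 for Ndufv1. At 10 weeks the skeletal muscle share also differed between WT and mutants, and the seminal vesicle share between WT and KO. Their part in these values was not tested.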

How the results depend on the processing

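In KO at 10 weeks DESeq2 called 19 members where limma called 0, and with 1 library left out limma called 0 to 29, the most without 10AF. With the skeletal muscle score as a covariate the median of the members was -0.40 in KO at 10 weeks, with log2 fold changes of 0.046 for Ndufa2, 0.14 for Ndufb2, and -0.066 in A537T with 22 members lower and 0.33 for Ndufab1, 0.097 for Ndufa7, 0.044 for Ndufa6, 0.0068 for Ndufv2, 0.017 for Ndufs1, 0.0073 for Ndufs7. The number of members lower without overlap in A537T at 10 weeks was 14 to 33 with 1 library left out, and Ndufab1 ran over -0.46 to 0.13.

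At 30 weeks, scaling to the same total gave 0 members lower without overlap in KO, with -0.0059 for Ndufc2, -0.00096 for Ndufs8, and 1 in A537T, with 0.0096 for Ndufb9. Scaling without muscle and vesicle genes gave 0 lower and 6 higher in KO, with 0.032 for Ndufv2, 0.026 for Ndufs1. In A537T it gave 0 lower, 7 higher and a median of 0.060, with 0.092 for Ndufb9, 0.060 for Ndufv2. Scaling of this kind also moved all genes, whose median became 0.060 in KO and 0.10 in A537T. Relative to all genes the median of the members was 0.046 in KO and -0.040 in A537T, as in the main fit. The share of all genes without overlap under these scalings is not given. With the seminal vesicle score as a covariate the median of the members was 0.15 in KO, with 7 members lower and 0.051 for Ndufv2, 0.12 for Ndufs3. In A537T the values were -0.040 for Ndufv1, -0.11 for Ndufb10, 0.045 for Ndufv2, -0.046 for Ndufs7, -0.10 for Ndufs8, -0.082 for Ndufa4. With 1 library left out, KO had 4 to 10 members higher and 1 to 8 lower without overlap, and A537T 4 to 9 higher and 2 to 8 lower with a median of -0.063 to 0.014. In KO the 10 higher came without 4AF, where 11.3% of all genes tested were higher, and the 8 lower without 5AF (21.6% lower). In A537T the 9 higher came without 8AF (23.2% of genes) and the 8 lower without 2AF (15.8%). Over all libraries left out, 10.4 to 21.6% of genes were higher and 11 to 21.6% lower in KO. These shares were 11.7 to 23.2% and 12.2 to 23.2% in A537T. In A537T at 10 weeks the share lower was 8.94 to 19.9%. The log2 fold changes then ran over -0.079 to 0.053 for Ndufc2, -0.099 to 0.17 for Ndufs8, -0.11 to 0.16 for Ndufa11, -0.0037 to 0.15 for Ndufs7, -0.080 to 0.037 for Ndufv2 in KO and -0.076 to 0.029 for Ndufb9, -0.054 to 0.081 for Ndufb10, -0.063 to 0.13 for Ndufa4, -0.031 to 0.067 for Ndufs7, -0.0039 to 0.037 for Ndufv1 in A537T. The cause of these changes was not tested.

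Of 360 values of named members under an alternative at 10 weeks 9 changed sign, and of 360 at 30 weeks 38 did. At 10 weeks 1 of these came with 1 library left out, and the others with the muscle score as a covariate. At 30 weeks 23 came with 1 library left out. The 360 also hold changes of pseudocount and filter, under which no named value changed sign. No paired analysis was possible because the deposited columns carry no replicate number. Wide spread between the WT libraries at 10 weeks limits what 3 libraries per group can show.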

Other observations

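Of the 5 symbols left out, Ndufb1-ps, annotated as a non-coding RNA, had the highest values. It ran from 197 to 844 normalised counts in WT and from 177 to 186 in KO at 10 weeks, and from 220.0 to 248 in WT and 268 to 322 in KO at 30 weeks. The WT median at 10 weeks was 356. Every KO value was below WT at 10 weeks, as for 14.3% of all genes tested, and above it at 30 weeks, as for 7.92%. In A537T it ran from 219.8 to 297 at 10 weeks and from 223 to 346 at 30 weeks, within or overlapping the WT range of its table (210.3 to 886 and 217 to 245). Ndufb4c ran from 44 to 68.3 in WT and 30.4 to 47.3 in KO at 10 weeks. Ndufa11b, Ndufs6b and Ndufab1-ps were at most 2.02 in any library.

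The counts of the shared WT libraries differed between the KO and the A537T table of an age. At 10 weeks the ratio, A537T table to KO table, ran from 0.922 for Ndufb7 to 1.04 for Ndufb4, and at 30 weeks from 0.895 for Ndufab1 to 1.07 for Ndufv1. Ndufv1 at 30 weeks was higher without overlap in the KO table (0.18) and had a log2 fold change of 0.0097 in the A537T table.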
